A study of Mus musculus with 2 samples.

Results

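Pax7, Pax3, Myf5, Myod1, Myog and Myf6 are the paired-box and MyoD family transcription factors that set the identity of muscle stem cells and carry them into differentiation. They were chosen by name, as the rows of the deposited table whose Entrez gene ID belongs to these symbols, and they make up 6 of the 24532 genes in the table. All 6 passed the minimum of 10 reads in the higher library, as did 14885 genes in all (called measured). The RNA came from muscle stem cells of male C57BL/6 mice, sorted from digested limb muscle as Vcam1-positive, Sca1-negative cells without the lineage markers CD31 and CD45, and used without culture. Both titles also carry the label 6M, whose meaning is not stated. There was 1 wild-type (WT) library with 36636680 reads and 1 double-knockout (dKO) library with 43699831 reads.

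The dKO genotype joins Pax7-CreER, Esr2–/– (loss of estrogen receptor beta) and a Cre-deletable gene that is not reported here. CreER is a Cre recombinase that works once tamoxifen is given, and here it is driven from Pax7, one of the genes described. Per the labels' protocols, given for both libraries, tamoxifen (20 mg/mL in corn oil) was fed on 5 days in a row to mice aged 3 months. The labels call the controls WT and do not say whether they carried the Cre driver. No source used here says whether the driver changes a Pax7 allele, so its part and the part of the deleted genes in a difference of Pax7 cannot be told apart. How many animals went into each library is not given either. With 1 library per genotype there is no replicate error, no test was possible, and each statement compares these 2 libraries.

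Pax7 and its paralogue Pax3 bind DNA through a paired domain and a homeodomain, and Pax7 is the defining factor of resident muscle stem cells. Myf5 and Myod1 are basic helix-loop-helix (bHLH) factors that commit cells to the muscle lineage, Myog (myogenin) drives terminal differentiation, and Myf6 (MRF4) is mostly a gene of muscle fibres. The MyoD family binds the E-box, CANNTG, as dimers with E proteins, and Id proteins and other inhibitors compete for these partners. In textbook accounts, quiescent stem cells hold Pax7 and Myf5, activated cells add Myod1, and cells that leave the cycle lose Pax7 and gain Myog.

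The promoter table held windows for 3 of the 6 genes (Myog, Pax7 and Myf5). The 250 bases before the RefSeq start site (GRCm38.p6, the assembly of mm10) are shown for Myog, a known target of the MyoD family. Capitals mark each E-box and each match to the MEF3 motif TCAGGTTTC, an element of some muscle promoters, both searched on both strands.
Myog, chr1:134289754-134290003, plus strand: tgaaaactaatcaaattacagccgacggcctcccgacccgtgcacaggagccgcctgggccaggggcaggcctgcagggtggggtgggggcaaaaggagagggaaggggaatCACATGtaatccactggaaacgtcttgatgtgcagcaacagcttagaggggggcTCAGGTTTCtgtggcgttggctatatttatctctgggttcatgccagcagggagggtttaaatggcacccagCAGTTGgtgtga
This window held 2 E-boxes, CACATG from base -138 and CAGTTG from base -12 before the start site, and 1 MEF3 match from base -84. GENCODE M21 starts Myog 15 bases further upstream, so by that annotation the second E-box is inside the first exon. The windows of Pax7 and Myf5 end at RefSeq start sites that lie 562 and 793 bases inside the RefSeq gene spans given below, and all 250 bases of the Pax7 window are exon in GENCODE M21. They are therefore not printed as promoters, and they held 0 matches to either motif. Of 32851 windows of this length, 66.2% held an E-box and 0.387% held the MEF3 motif. A match says only that these letters are in the window.

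Together the 6 genes held 0.106% of all reads in WT and 0.0897% in dKO, and the make-up of that sum differed. Myod1 was 3.13-fold higher in dKO, Pax7 was 1.77-fold lower, and Myf5, Pax3, Myog and Myf6 were between 1.04-fold and 1.21-fold lower. By a rule of size (a log2 ratio of at least 1, which is 2-fold), 1 of the 6 genes was higher in dKO and 0 were lower. Over all measured genes the same rule called 1.92% higher, 4.3% lower and 6.22% in either direction. The median log2 ratio of the 6 genes was −0.13, beside −0.02 over all measured genes.

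Myod1 (Entrez 17927; chromosome 7, 46376474 to 46379092, plus strand), which can turn other cell types into muscle when forced on, had 5396 reads in the WT library (exact Poisson 95% bounds of 5253 and 5542) against 16886 reads in the dKO library (16632 to 17143). After scaling to library size this was 135 and 422 CPM (counts per mega-read of library size), and the dKO to WT ratio was 3.13 (exact binomial 95% interval 3.03 to 3.23). The log2 ratio, taken on CPM + 1, was 1.64. It stayed at or above 2-fold under all 8 alternative scalings, pseudocounts and row choices, with values from 1.24 to 1.65. With Myod1 itself included, 43 of the 14885 measured genes (0.289%) had a log2 ratio as high as that of Myod1.

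Pax7 (Entrez 18509; chromosome 4, 139737059 to 139833530, minus strand) went the other way. It had 22335 reads in WT (22043 to 22630) and 12620 in dKO (12401 to 12842), which is 558 and 315 CPM. The dKO to WT ratio was 0.565 (0.553 to 0.577) and the log2 ratio −0.82, a value that 6.78% of the measured genes reached or fell below. Pax7 crossed the 2-fold line under 3 of the 8 alternatives, with −1.08 by library totals alone, −1.12 with a trend on abundance and transcript length removed, and −1.18 when scaled by the summed reads of 17 muscle stem cell markers.

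**Figure D1:**
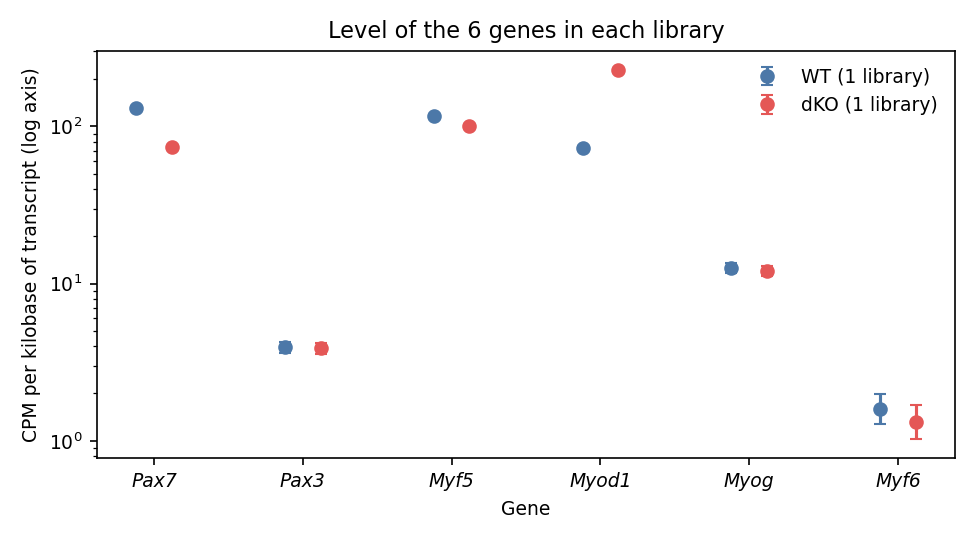
Level of each gene in the WT (blue) and dKO (red) library, as CPM per kilobase of transcript on a log axis, with exact Poisson 95% intervals that cover counting error only. Myod1 stood at 72.8 in WT and 228 in dKO, Pax7 at 131 and 73.8, and the pairs of points of Pax3, Myog and Myf6 had overlapping intervals.

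Pax3 (Entrez 18505; chromosome 1, 78101267 to 78197136, minus strand), the paralogue that acts in the embryonic limb and persists in stem cells of some muscles, was much scarcer than Pax7. It had 585 reads in WT (539 to 634) and 563 in dKO (517 to 611), with a ratio of 0.962 (0.855 to 1.08). The interval holds 1, so no difference was detectable at this depth. Its log2 ratio of −0.05 turned to 0.11 with the trend on abundance and length removed. Pax3 is the one gene of the 6 with more than 1 row in the table, and its 2 rows went opposite ways. The row of 3868 bases had 406 reads in WT and 308 in dKO, a ratio of 0.758 (0.652 to 0.882). The row of 3376 bases had 179 and 255 reads, a ratio of 1.42 (1.17 to 1.73). The shorter row thus held 30.6% of the Pax3 reads in WT (Clopper-Pearson 95% interval 26.9 to 34.5) and 45.3% in dKO (41.1 to 49.5). Neither length equals the 3863 bases of the longest protein-coding Pax3 transcript in GENCODE M21. No source used here gives the rule that divided reads between rows, so the rows are not named as isoforms. A read that was counted in both rows would enter the sum and these shares more than once, which the intervals do not allow for. By its longer row alone, Pax3 had a log2 ratio of −0.37.

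Myf5 (Entrez 17877; chromosome 10, 107482908 to 107486927, minus strand), the other commitment factor beside Myod1, did not share the difference of Myod1. It had 9711 reads in WT (9519 to 9906) and 8337 in dKO (8159 to 8518), which is 243 and 208 CPM. The ratio was 0.858 (0.833 to 0.884) and the log2 ratio −0.22, with −0.47 by library totals, −0.57 with the trend removed and −0.58 by the summed stem cell markers. Under each of the 8 alternatives Myf5 was below 0 and Myod1 above it.

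Myog (Entrez 17928; chromosome 1, 134290004 to 134292548, plus strand), whose promoter window with 2 E-boxes is printed above, was close in the 2 libraries. WT held 749 reads of it (696 to 805) and dKO held 709 (658 to 763), a level of 18.7 against 17.7 CPM and a ratio of 0.946 (0.853 to 1.05). Its log2 ratio was −0.08, and −0.32 by library totals. A 2-fold difference of Myog lies outside this interval, which allows for counting error alone.

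Myf6 (Entrez 17878; chromosome 10, 107492848 to 107494723, minus strand) was near the lower end of detection. It had 80 reads in WT (63.4 to 99.6) and 66 in dKO (51.0 to 84.0), with a ratio of 0.825 (0.586 to 1.16). Myf6 lies 5920 bases from Myf5 on the same strand, and the 2 genes had log2 ratios of −0.18 and −0.22. Myofibre markers, whose RNA can reach a sort from broken fibres, were present in both libraries beside it. All 16 of them were measured, and 13 were below 0 (52.4% of all measured genes were not above 0). Of these markers 0 were 2-fold apart, with a median log2 ratio of −0.32 and a summed level of 1379 CPM in WT and 1158 in dKO. Their part in the Myf6 reads was not tested.

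Levels of different genes can be set side by side only per length. In WT, Pax7 stood at 131 CPM per kilobase of transcript, Myf5 at 117, Myod1 at 72.8, Myog at 12.7, Pax3 at 3.95 and Myf6 at 1.60. In dKO the order was Myod1 at 228, Myf5 at 100.01, Pax7 at 73.8, Myog at 11.97, Pax3 at 3.88 and Myf6 at 1.32. Pax7 and Myod1 thus changed places around Myf5, while the order of the lower 3 genes was the same in both libraries. Counted from the highest level per length of all 24532 genes, Myod1 was at rank 824 in WT and 320 in dKO, and Pax7 at rank 447 and 1006. The lead of Pax7 over Myf5 in WT depended on the transcript length. With the 5854 bases of the longest protein-coding GENCODE M21 transcript in place of the 4275 bases in the deposited table, Pax7 stood at 95.4 in WT, below Myf5.

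**Figure D2:**
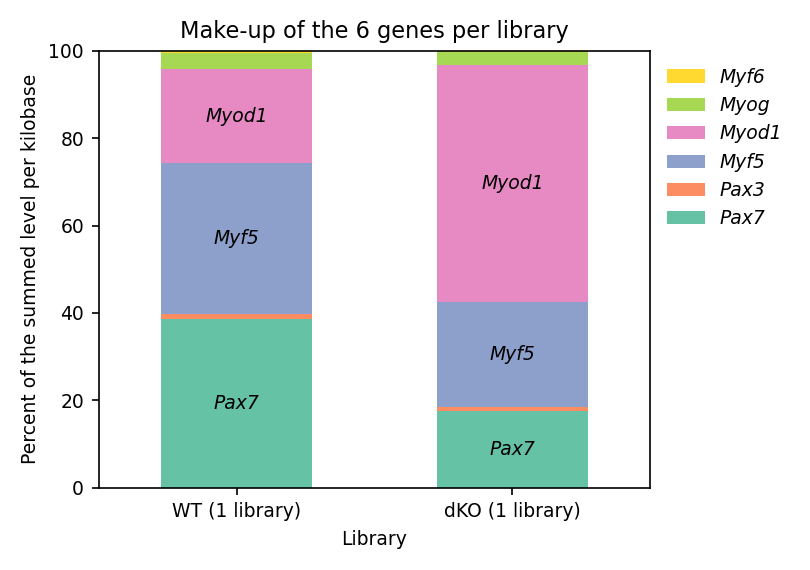
Share of each gene in the summed level per kilobase of the 6 genes, in percent, with 1 bar per library and the transcript lengths of the deposited table. Myod1 took 21.5% in WT and 54.4% in dKO, and Pax7 took 38.6% and 17.6%.

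The MyoD family as a whole (Myf5, Myod1, Myog and Myf6) made up 60.2% of the summed level per length in WT and 81.4% in dKO. Pax7 and Pax3 made up the other 39.8% and 18.6%. These shares rest on the transcript lengths in the deposited table. By the longest GENCODE M21 lengths Pax7 took 31.6% in WT and 13.6% in dKO, and Myod1 24.0% and 57.1%. A ratio of 2 genes within a library needs no scaling between libraries, so these ratios do not move with the choice of library size. Per length, the Myod1 level was 0.557 times that of Pax7 in WT (0.541 to 0.574) and 3.09 times in dKO (3.01 to 3.16), a 5.54-fold change (95% interval 5.33 to 5.75). The Myod1 to Myf5 ratio went from 0.624 (0.604 to 0.645) to 2.28 (2.22 to 2.34), a 3.65-fold change (3.49 to 3.803). Both ratios passed from below 1 to above 1.

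Myog did not keep pace with Myod1 but did stand higher against Pax7. The Myog to Myod1 ratio went from 0.174 (0.161 to 0.188) to 0.0526 (0.0487 to 0.0567), which is 0.302 of the WT value (0.272 to 0.337). The Myog to Pax7 ratio went from 0.0969 to 0.162, a 1.68-fold change (1.51 to 1.86). The Myf5 to Pax7 ratio went from 0.892 to 1.36, a 1.52-fold change (1.46 to 1.58). By GENCODE M21 lengths Myf5 stood at 117 and Pax7 at 95.4 in WT, so that WT ratio depends on the length used, unlike the change. By contrast, with the rows of Pax3 summed, the ratios among Pax3, Myf5, Myog and Myf6 all had a change whose interval held 1. With each pair written in the order that gives a change above 1, these ran from 1.02 (0.871 to 1.19) for Pax3 to Myog up to 1.17 (0.825 to 1.65) for Pax3 to Myf6. The intervals for Pax3 to Myf5, 1.12 (0.995 to 1.26), and Myog to Myf5, 1.10 (0.991 to 1.23), ended close to 1. The pairs with Myf6 have wide intervals, so smaller differences among these 4 genes were not detectable at this depth. By the main row the log2 ratio of Pax3 was −0.37 and that of Myf5 −0.23, so the direction of the Pax3 to Myf5 change depends on the rows used. All 15 pairs were computed, and the intervals are not adjusted for their number.

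**Figure D3:**
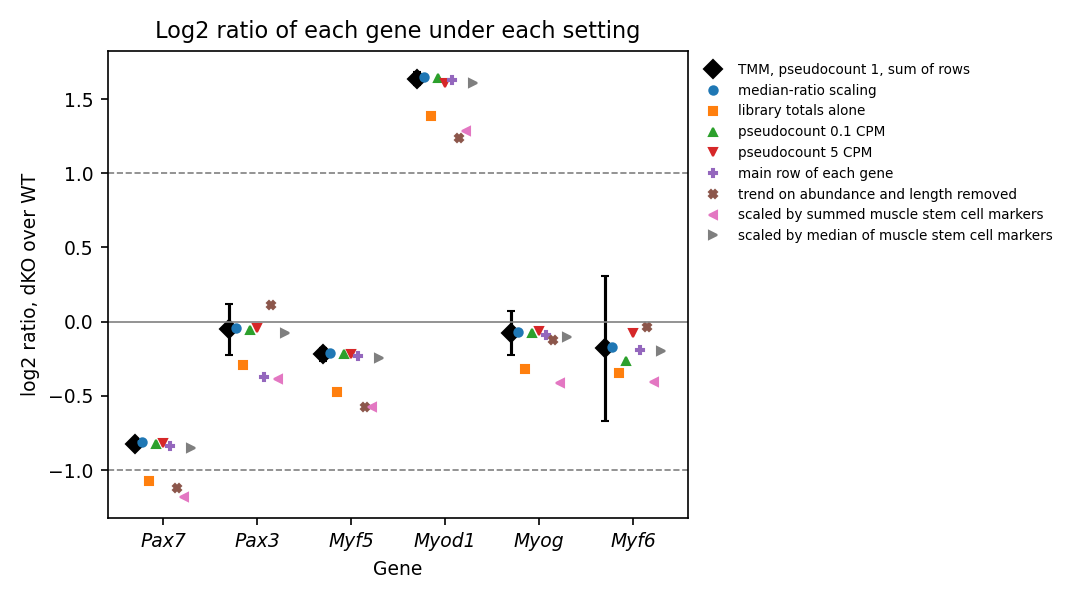
Log2 ratio (dKO over WT) of each gene as reported (black diamonds, with counting intervals) and under the 8 alternative settings (coloured symbols); dashed lines mark 2-fold. Myod1 lay between 1.24 and 1.65 throughout and Pax7 between −1.18 and −0.81, while Pax3 had values on both sides of 0.

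The 3 most abundant of the 6 genes lay in the highest eighth of measured genes by mean CPM, where the median log2 ratio was 0.29, against −0.16 in the lowest eighth. Against that median, Myod1 was higher still, while Pax7 and Myf5 were lower. With this trend and that on transcript length removed, the values were 1.24 for Myod1, −1.12 for Pax7 and −0.57 for Myf5. The trend's part in the differences between the libraries was not tested beyond this removal.

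**Figure D4:**
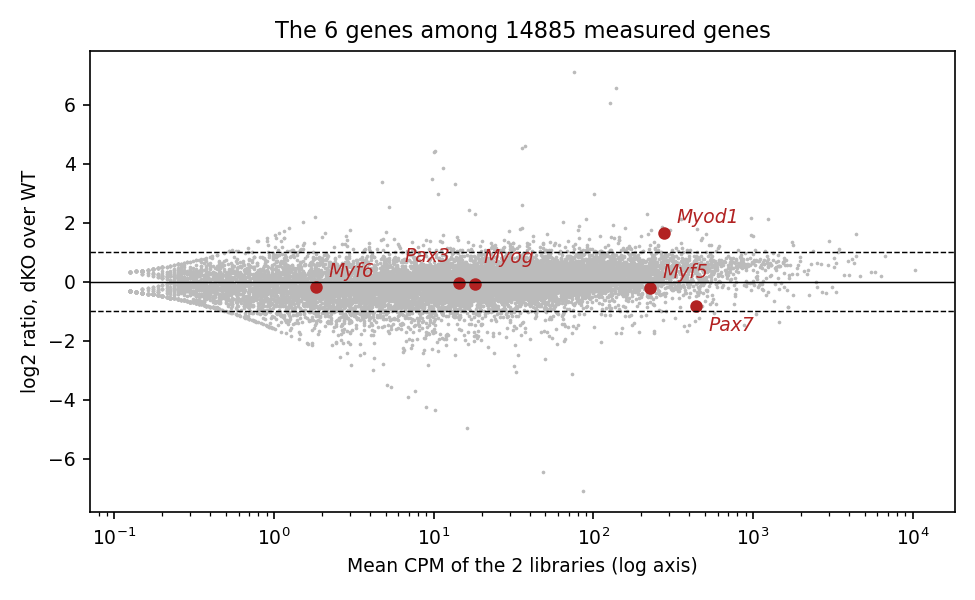
Log2 ratio (dKO over WT) of the 14885 measured genes against their mean CPM on a log axis, 1 grey point per gene, with the 6 genes in red and 2-fold marked by dashed lines. Myod1 at 1.64 is above the band of abundant genes, and Pax7 at −0.82 is near its lower edge.

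The 2 libraries also differed in markers of other cell types. The lists include the genes of the antigens sorted against: Pecam1 (CD31), Ptprc (CD45) and Ly6a (Sca1). Over all measured genes, 4.3% were lower and 1.92% higher by 2-fold. Of 13 immune markers, 12 had a log2 ratio of −1 or less and the other was also negative (median −1.93), and their summed level was 271 CPM in WT and 78.8 in dKO. The endothelial list had 11 of 13 genes lower by 2-fold and no positive value (median −1.48; 753 and 315 CPM). Of 10 fibro-adipogenic progenitor markers 7 were lower by 2-fold (median −1.26; 2539 and 1266 CPM), and of 5 tendon markers 2 were (median −0.85; 4323 and 2052 CPM). Of 8 mural markers 3 were lower (median −0.68; 1354 and 879 CPM), and of 6 glial markers 0 were 2-fold apart (median 0.28; 259 and 222 CPM). No marker of these 6 lists was at 0 in either library. Their part in the results on the 6 genes was not tested. In bulk RNA, fewer cells of a type and less RNA per cell cannot be told apart.

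Markers of muscle stem cells themselves were checked against the labelled cell type and were present at high levels. One of them, Vcam1 (23795 and 42383 reads), is the antigen that the cells were sorted for, so its presence is no independent check. All 17 markers were measured, 9 were above 0 and 8 were below, with a median log2 ratio of 0.03. Of the 17, 0 were 2-fold apart, beside 6.22% of all measured genes. Their summed level was 11950 CPM in WT and 15310 in dKO. The most abundant were Sdc4, a heparan sulfate syndecan, with 119223 and 194985 reads (log2 ratio 0.71), and Des, the muscle intermediate filament desmin, with 47376 and 69012 (0.54). Scaled by the median ratio of these 17 genes, an alternative chosen after seeing the data, Myod1 had a log2 ratio of 1.61 and Pax7 one of −0.85. No other Pax gene was near Pax7 or Pax3: Pax2, Pax4, Pax5, Pax6 and Pax8 had 0 reads in both libraries, Pax1 had 2 and 0, and Pax9 had 10 and 17. A count of 0 allows up to 3 reads, which is 0.0750 CPM in either library.

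Genes that act upstream of the MyoD family did not pass the rule of size, which called 6.22% of all measured genes in either direction. Of 8 measured upstream regulators (Eya1, Eya2, Eya4, Six4, Pitx3, Lbx1, Tbx1 and Meox2), 0 were higher and 0 lower by 2-fold, but all 8 were below 0 (52.4% of all measured genes were not above 0), with a median of −0.32 that ran from −0.65 to −0.25 over the alternatives. The most abundant were Eya4, a transcriptional cofactor with phosphatase activity, with 2383 and 2093 reads (−0.18), and its relative Eya1 with 1504 and 1246 (−0.26). Meox2, a limb muscle homeobox gene named after its value was seen, had 428 and 204 reads and the lowest log2 ratio of the list (−0.94). The count lower by 2-fold was 1 by library totals, with a pseudocount of 0.1 and by the summed stem cell markers.

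E proteins, the dimer partners of the MyoD family, were nearly level by the sum of their rows. Tcf4 (the E2-2 gene) had 9630 and 9590 reads, with a log2 ratio of −0.01, and Tcf12 (the HEB gene) had 4846 and 4358 (−0.15). Of the 3 genes 0 were 2-fold apart (6.22% of all measured genes were), and the median was −0.10. These genes have between 2 and 8 rows each, and by the main row the median was −0.70 and 1 of the 3 was lower by 2-fold. By the sum of rows, none of the 3 was higher in dKO, unlike Myod1.

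Inhibitors of bHLH factors went in both directions. Of 17 measured genes, 1 was higher by 2-fold and 0 were lower, beside 1.92% and 4.3% of all measured genes. Of the 17, 7 were above 0 (47.6% of all measured genes were) and 10 below, with a median of −0.05. The higher one was Msc (musculin, or MyoR), a bHLH repressor of the muscle lineage, with 4033 reads in WT and 9005 in dKO, a ratio of 2.23 (2.15 to 2.32). The list had 0 genes higher by 2-fold under library totals, with the trend removed and by the summed stem cell markers, so this call depends on the scaling. The most abundant were Id3, which sequesters E proteins, with 39496 and 44873 reads (log2 ratio 0.18), and Heyl, a Notch effector, with 37312 and 36031 (−0.05). Named after their values were seen, Id1 had 4959 and 9371 reads (0.91) and Mdfic, of the family of the MyoD inhibitor I-mfa, 3916 and 6927 (0.82). Twist2, another bHLH repressor, also chosen after its value was seen, had 90 and 33 reads. Its CPM was 2.73-fold lower (1.81 to 4.20), but its log2 ratio on CPM + 1 was −0.83, so the pseudocount keeps it inside 2-fold. The count lower by 2-fold was 1 with a pseudocount of 0.1 and 2 by the summed stem cell markers.

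**Figure D5:**
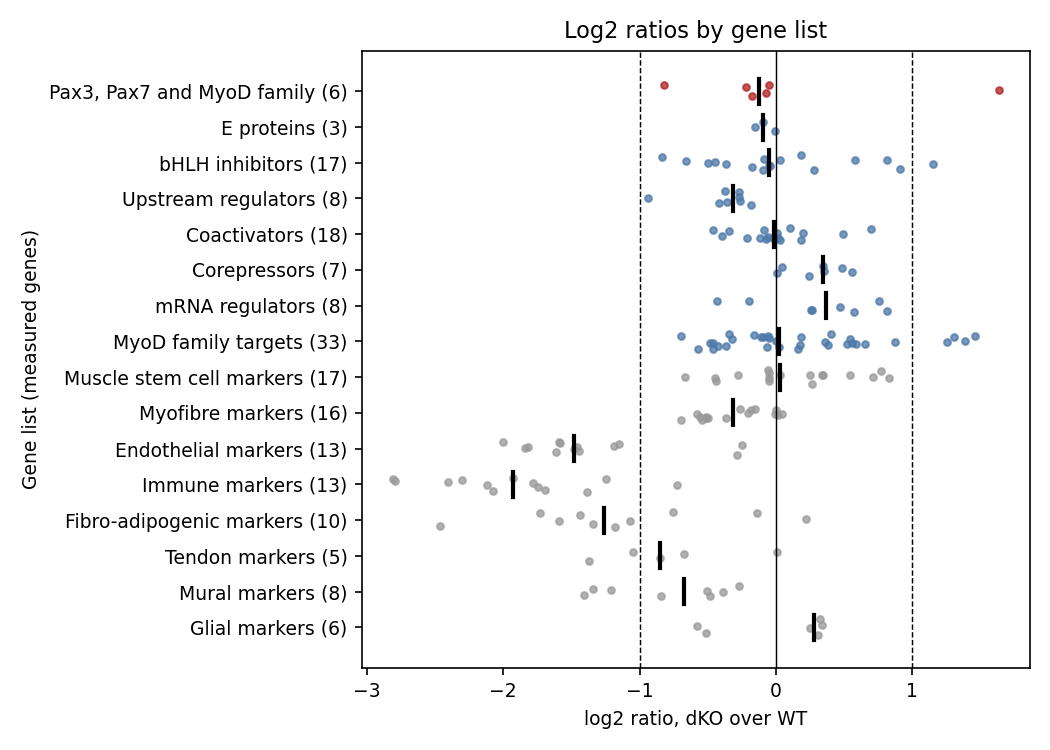
Log2 ratio (dKO over WT) of each measured gene, 1 point per gene, in the 6 genes (red), lists of genes that act with them (blue) and cell type markers (grey); black bars are list medians, dashed lines mark 2-fold, and points are spread vertically for legibility. The upstream regulators are all left of 0, and the immune and endothelial markers have medians of −1.93 and −1.48.

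Coactivators of Pax7 and the MyoD family, among them histone acetyltransferases, methyltransferases and Mef2 factors, were mostly level. Of 18 genes 0 were 2-fold apart (6.22% of all measured genes were), 8 were above 0 and 10 below, and the median was −0.01. Mef2d, a MADS-box partner of the MyoD family, had 11695 and 16419 reads (0.49), and the histone methyltransferase gene Kmt2a had 12791 and 12695 (−0.01). Paxbp1 and Carm1, which link Pax7 to the histone methyltransferases at Myf5 and were named after their values were seen, had log2 ratios of 0.01 and −0.08. The highest and lowest genes of the list are named for the same reason. Wdr5 had 1744 and 2846 reads (0.69; 1.63-fold, 1.54 to 1.73), and Mef2c had 395 and 276 (−0.46). Corepressors had all 7 genes above 0, beside 47.6% of all measured genes, and 0 of them 2-fold apart. Their median of 0.35 was 0.24 with the trend on abundance and length removed and 0.10 by library totals. It turned to −0.01 when scaled by the summed stem cell markers. By the main row of each gene, 1 coactivator and 1 corepressor were higher by 2-fold. The class IIa deacetylase gene Hdac4 had 5400 and 6884 reads (0.35) and the methyltransferase gene Ehmt2 5526 and 5562 (0.01).

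Regulators that act on Myod1, Myog or Myf5 RNA after transcription had 6 of 8 genes above 0, beside 47.6% of all measured genes. Of these 8 regulators, 0 were 2-fold apart, beside 6.22% of all measured genes. Their median was 0.37 (0.11 by library totals, 0.10 with the trend removed and 0.01 by the summed stem cell markers). Zfp36 (tristetraprolin), which binds Myod1 RNA and speeds its decay in quiescent cells, had 133730 reads in WT and 116838 in dKO, a log2 ratio of −0.20. Its relative Zfp36l1 had 68959 and 82759 (0.26). Named after their values were seen, Elavl1 (HuR), which stabilises Myod1 and Myog RNA, had 2889 and 4898 reads (0.75), and Hnrnpd (AUF1) had 4957 and 8726 (0.81).

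Target genes of the MyoD family were divided. Of 33 measured genes, 4 were 2-fold higher and 0 were 2-fold lower, and the higher ones are 12.1% of the list beside 1.92% of all measured genes, while 17 were above 0 and 16 below. The counts higher and lower were 6 and 2 with a pseudocount of 0.1, 2 and 0 with one of 5, and 2 and 1 by the summed stem cell markers. The list median was 0.02, and it turned to −0.06 by library totals and −0.08 by the summed stem cell markers. The 4 genes were Actc1, cardiac alpha-actin, with 102 and 351 reads (3.44-fold, 2.75 to 4.33), Tnnt1, slow troponin T, with 427 and 1179 (2.76-fold, 2.47 to 3.09), Ryr1, the calcium release channel, with 704 and 1803 (2.56-fold, 2.35 to 2.80), and Myl4, an embryonic myosin light chain, with 104 and 304 (2.92-fold, 2.33 to 3.69). This list was chosen with earlier results known, in which Actc1, Ryr1 and Myl4 already stood out, so the share is a description.

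Most other targets of the same factors were closer in the 2 libraries. The most abundant were Des (log2 ratio 0.54) and the growth factor receptor gene Fgfr4, with 40699 and 39118 reads (−0.06). Among genes named after their values were seen, the cadherin gene Cdh15 had 20113 and 19438 reads (−0.05) and the acetylcholine receptor genes Chrna1 and Chrnb1 had log2 ratios of −0.11 and 0.02. The cell cycle inhibitor gene Cdkn1a had 14689 and 23103 reads (0.65), and the fusion gene Mymk 50 and 125 (0.87). By CPM, Mymk was 2.499-fold higher in dKO (1.79 to 3.54). Tnnc1, also named after its value was seen, had 7 and 29 reads (0.55) and was 4.14-fold higher by CPM (1.78 to 11.2). The pseudocount of 1 CPM keeps Mymk and Tnnc1 out of the count of higher genes. Myl1 and Ckm, fibre genes of the list also named after their values were seen, had values of −0.57 and −0.37. The lowest value of the list was −0.70, for Mustn1. Tnni1, slow troponin I, had 15 reads in WT and 0 in dKO, and Myh8, perinatal myosin, had 10 and 0. Tnni1 and Myh8 were named after their values were seen, and they met the minimum of 10 reads only through WT, where they were higher. No bound on their folds is therefore drawn. The pseudocount of 1 CPM keeps both out of the count of lower genes.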

How the data were processed

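RNA-seq read counts of 1 WT and 1 dKO library were used. Per the file headers, the deposited table gives whole-number counts in 36780 rows, each naming a transcript's Entrez gene and its length. The authors worked on mm10 with edgeR, bedtools and TopHat2 (version 2.0.9), per the submitters' processing notes, which state no role. How reads were counted, and on which strand, was not stated. A gene's rows were summed, and 24462 of 24532 gene IDs matched a RefSeq symbol (GRCm38.p6). IDs without a symbol took 0.314% of WT and 0.401% of dKO reads.

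Library sizes (36636680 WT and 43699831 dKO reads) were scaled with TMM in edgeR 4.0.16 (R 4.3.3), with factors of 1.09 and 0.916. Log2 ratios are dKO over WT of CPM + 1. Folds are CPM ratios with exact binomial 95% intervals, and counts have exact Poisson 95% intervals. Changes of a ratio between 2 genes have 95% intervals from the standard error of the log ratio of 4 counts. All intervals cover counting error only. The count steps were tested on simulated data.

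With 1 library per group there was no test. A rule of size was used: at least 10 counts in the higher library (measured) and a log2 ratio of 1 or more, or −1 or less. Beside the 6 genes, up to 4 members per list past 2-fold and its 2 most abundant members are named; others are said to be chosen after their values were seen. The genes and lists were chosen with earlier results of these data known, and 2 genes of the upstream regulators are not reported here. Alternatives were median-ratio scaling (DESeq2 1.42.0), library totals, pseudocounts of 0.1 and 5, the main row, count floors, fold rules of 1.5 and 4, removal of a cubic trend on abundance and length and, chosen after seeing the data, 2 scalings to muscle stem cell markers and GENCODE M21 lengths.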

Additional observations from a re-analysis of the deposited data

How the results depend on the processing

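No paired analysis was possible because each genotype had 1 library. Over the 8 alternatives, Pax7, Myf5, Myog and Myf6 stayed below 0 and Myod1 above 2-fold, while Pax3 turned sign once. By library totals, the log2 ratios were −1.08 for Pax7, −0.29 for Pax3, −0.47 for Myf5, 1.39 for Myod1 and −0.32 for Myog. By the summed stem cell markers, chosen after seeing the data, they were −1.18, −0.39, −0.58, 1.28 and −0.41. With the trend removed they were −1.12 for Pax7, −0.57 for Myf5 and 1.24 for Myod1. By the main row, Pax3 had −0.37, and its change against Pax7 was 1.34-fold in place of 1.70-fold. Of the 6 genes, Pax7 alone was lower by the fold rule under library totals, the summed markers, the removed trend and the 1.5-fold rule (1 gene in place of 0), and 0 were higher under the 4-fold rule.

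Over all measured genes, 286 were higher and 640 lower. These were 130 and 1040 by library totals (88.9% of those 2-fold apart lower, against 69.1%) and 102 and 1282 (92.6%) by the summed markers. They were 698 and 1653 with a pseudocount of 0.1, 154 and 187 (54.8%) with one of 5, 474 higher by the main row, and 417 lower (57.6%) with the trend removed. They were 1336 and 1955 by the 1.5-fold rule and 25 and 56 by the 4-fold rule. The median of all genes moved from −0.02 to −0.24 by totals and −0.33 by the summed markers. The causes were not tested. Counting error limits Myf6 (80 and 66 reads) most, and replicate error is unknown.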

Other observations

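The genes on either side of the 6 loci were also examined. They were taken as the protein-coding RefSeq genes nearest in position, up to 2 on each side. Of the neighbours of Myod1, Kcnc1, a potassium channel gene 17.1 kb away, had 14 reads in WT and 54 in dKO (log2 ratio 0.80), Sergef had 230 and 305 (0.35), and Otog and Ush1c had at most 3 reads in a library. The log2 ratios are taken on CPM + 1, which draws those of genes with few reads, such as Kcnc1, toward 0. Near Pax7, Tas1r2 had 13 and 10 reads (−0.08), Klhdc7a 0 and 11 (0.35), Aldh4a1 627 and 770 (0.28) and Igsf21 85 and 113 (0.29). Around Myf5 and Myf6, Lin7a had 1375 and 1555 reads (0.17), Ptprq 160 and 203 (0.28) and Acss3 669 and 639 (−0.06), while Otogl had 0 in both. Near Myog, the adenosine receptor gene Adora1 had 302 and 79 reads (−1.52), Mybph 80 and 46 (−0.48), Ppfia4, 4.23 kb away, 116 and 66 (−0.56) and Tmem183a 2092 and 2613 (0.31). Near Pax3, Epha4 had 1662 and 1897 reads (0.19), Slc4a3 1466 and 1830 (0.31) and Sgpp2 16 and 5 (−0.32), and Gm2102 was not analysed here. No relation to the 6 genes was tested.

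Early response genes, which rise when muscle is dissociated, were abundant in both libraries. Of 17 such genes, 1 was 2-fold higher and 0 were 2-fold lower (median log2 ratio −0.08), beside 1.92% and 4.3% of all measured genes. The higher one was Myc, a transcription factor of growth, with 15513 and 31764 reads (1.03). This value is barely past the 2-fold line. By library totals, Msc with its larger log2 ratio of 1.15 fell inside 2-fold, so the call of Myc does not hold under that scaling either. Its value under the other alternatives was not computed. The most abundant, Egr1 and Junb, had log2 ratios of 0.19 and 0.20. Socs3, a feedback inhibitor of cytokine signals named after its value was seen, had 85193 and 46953 reads (−0.86).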
